A study of Homo sapiens with 18 samples.

Results

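Loss of RelA was set directly against loss of RelB in GM12878, an EBV-transformed lymphoblastoid line made from human B cells. The comparison takes 6 of the 18 libraries of the study, 3 of the RelA knockout and 3 labelled as the RelB knockout, and uses 3 control libraries as the reference level. Genes were kept where the mean over all 18 libraries was at least 10 normalised read counts, which left 12381 of 17155 genes. The whole study also holds knockouts of p50, p52 and cRel, and its stated purpose is to compare the 5 subunits.

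All groups were GM12878 cells with the genotype given as "Wildtype LMP1", so the viral protein LMP1 is unaltered in knockouts and controls alike. Cells of every group were transduced with a lentivirus carrying a single guide RNA and selected in puromycin at 3 µg/ml for 5 days. The RelA knockout received a guide for RelA, the RelB knockout a guide for RelB, and the control, labelled pxpr, a non-targeting guide. The labels' protocols state that loss of each protein was checked by immunoblot. The sources used here do not give the guide sequences, nor whether each knockout was a clone or a pool of selected cells. GM12878 is a single donor-derived line, and its EBV infection and its LMP1 signal are part of every group.

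RelA and RelB are the members of the NF-kB family, beside cRel, that carry a transactivation domain. In the canonical pathway the IKK complex marks IkB proteins for degradation, and dimers of RelA with p50 enter the nucleus. In the non-canonical pathway the kinase NIK builds up when TRAF3 and cIAP proteins stop degrading it, p100 is processed to p52, and dimers of RelB with p52 enter the nucleus. LMP1 mimics a constantly active CD40 receptor and turns on both arms in EBV-transformed B cells, which depend on NF-kB for survival.

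Values are deposited normalised read counts, in which 1 read was worth 0.646 to 1.46 units. Depth ranged from 15.2 M in RelB-labelled library 1 to 37.5 M recovered reads in control library 3. The difference of a gene is the log2 change of RelA knockout minus RelB-labelled libraries on log2(value + 1), so a positive value is a higher level in the RelA knockout. Standard errors (SE), 95% intervals and adjusted p come from limma with Benjamini-Hochberg adjustment over all 12381 genes, 3 libraries per group, and a gene was called at an adjusted p under 0.05. The labels call the replicates biological, but nothing says that they came from separate cultures, so the spread behind each p-value may be technical. Libraries also deviated from their group mean with transcript length: the rank correlation across genes was -0.31 for RelA library 2, -0.45 for control library 3 and -0.20 for RelB-labelled library 3.

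The B-cell markers were present in every library, with MS4A1, the CD20 antigen, at 22468, 21653 and 25836 in the RelA knockout and 23349, 20072 and 21439 in the RelB-labelled libraries. Of the 8 B-cell markers none was higher and 3 were lower in the RelA knockout (37.5% called, against 67.2% of all genes tested). Over all genes tested, 34.1% were called higher and 33.1% lower, which is the background for each marker list here. The summed level of the B-cell markers was 124584 to 128498 with RelA knocked out, 128834 to 141377 in the RelB-labelled libraries and 128586 to 143229 in the control. Of the T and NK cell markers, 7 of 10 were matched and 4 tested, with 1 higher and 1 lower in the RelA knockout and a summed level of 456 to 529 against 698 to 770, and 412 to 556 in the control. NKG7 carried most of that sum, at a mean of 392 against 675. CD3D, which defines T cells, was at 0 in 7 of these 9 libraries and at most 1.10 in the others. Of the monocyte markers 6 of 8 were matched and 2 tested, and both were lower in the RelA knockout (median -0.98), CSF1R at a mean of 356 against 747 and ITGAM at 106 against 197. Their list summed to 460 to 505 with RelA knocked out, 908 to 982 in the RelB-labelled libraries and 516 to 538 in the control, and CD14, which defines monocytes, was at most 1.46 in any of the 9. All 8 epithelial and fibroblast markers were matched and 4 tested, none higher and 2 lower (median -0.51), CDH1 at 159 against 372 and COL1A1 at 1067 against 1392 (the last not called without RelB replicate 1, adjusted p = 0.0564 by limma, over a range of 1.54e-04 to 0.0564). These summed to 1246 to 1407, 1657 to 1973 and 1339 to 1502 in the same order, with KRT18 at most 3.94. Of the erythroid and megakaryocyte markers 3 of 8 were matched and none tested, with sums of 4.48 to 13.4, 11.7 to 23.9 and 0.646 to 11.8. The part of such cells in the results below was not tested.

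The mRNA of the targeted genes was set beside the labels first. RELA (ENSG00000173039) stood at 1403, 1369.6 and 1332 in the RelA knockout, at 2429, 2496 and 2456 in the RelB-labelled libraries and at 2237, 2175 and 2212 in the control. All 3 RelA knockout libraries lay below all others, in the direction of their label. RELB (ENSG00000104856) stood at 1865, 2024 and 1772 in the RelA knockout, at 4218, 4192 and 3911 in the RelB-labelled libraries and at 3422, 3137 and 3399.7 in the control. The RelB-labelled libraries thus held the highest RELB level of these 3 groups, against their label, and lay 0.31 above the control on the log2 scale (adjusted p = 1.7e-04 by limma). Small insertions or deletions need not lower the amount of an mRNA, so the counts do not check the loss of RelA or RelB protein. The libraries with the guide for RelB are called RelB-labelled throughout.

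The RelA knockout and the RelB-labelled libraries differed in 8318 of 12381 genes, or 67.2% of all tested. Of these, 4225 were higher in the RelA knockout (34.1% of genes tested) and 4093 were lower (33.1%), and the median difference over all genes was 0.0048. A difference of at least 2-fold was called in 1502 genes (12.1%), with 499 higher (4.03%) and 1003 lower (8.1%) in the RelA knockout. The libraries of the 2 groups did not overlap in 8881 genes (71.7%). Without RelA replicate 2 the count of called genes was 7755, and without RelB replicate 3 it was 7839. These shares are the background against which every gene list below is read.

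**Figure D1:**
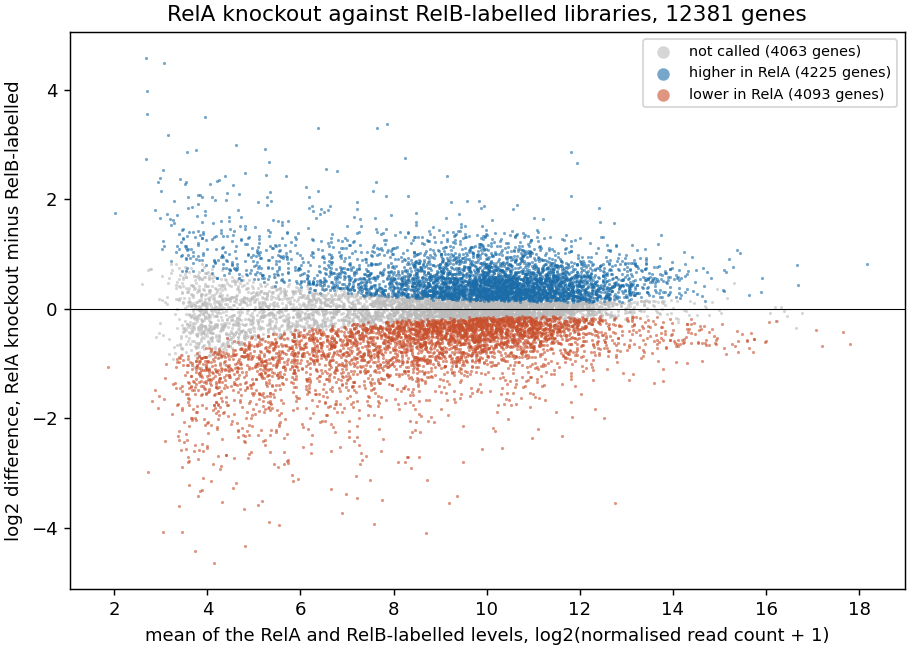
Each point is 1 gene, with its mean level over the RelA knockout and RelB-labelled libraries on the x axis, log2(normalised read count + 1), and the log2 difference between them on the y axis. The 4225 genes called higher in the RelA knockout are blue, the 4093 called lower are orange and the rest are grey, and called genes lie at all levels.

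Most of the distance between the knockouts lay between the RelB-labelled libraries and the control. Against the control, 687 genes were called in the RelA knockout (5.55% of genes tested, with 361 or 2.92% higher and 326 or 2.63% lower) and 8391 in the RelB-labelled libraries (67.8%, with 4098 or 33.1% higher and 4293 or 34.7% lower). The median absolute log2 difference was 0.107 for RelA knockout minus control, 0.388 for RelB-labelled minus control and 0.379 between the knockouts. Both contrasts use the same 3 control libraries. The smaller count rested more on single libraries, at 454 without RelA replicate 1, 413 without RelA replicate 3 and 442 without control replicate 1. Where the knockouts differed, the control mean was nearer to the RelA knockout for 92.9% of the genes higher there and for 89.6% of the genes lower there. Among the genes called and at least 2-fold apart these shares were 94.2% of 499 and 95.8% of 1003. For the 4063 genes not called, the control mean was nearer to the RelA knockout in 64.9%. The first principal component of the 18 libraries held 51.1% of the variance and placed the RelB-labelled libraries at 49.8 to 52.7, the RelA knockout at -27.7 to -23.4 and the control at -26.6 to -20.8.

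**Figure D2:**
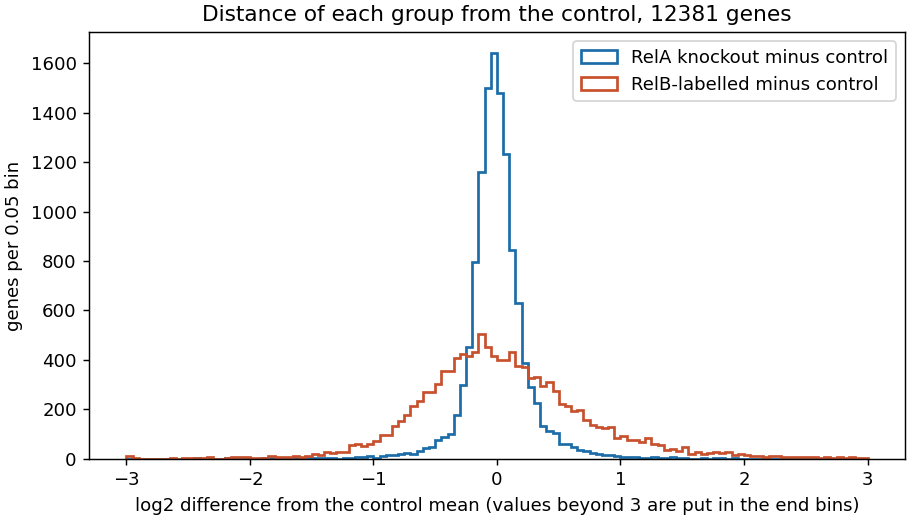
The x axis is the log2 difference of a group mean from the control mean and the y axis the number of genes per bin of 0.05, for the RelA knockout in blue and the RelB-labelled libraries in orange. The RelA knockout has the narrower distribution, with a median absolute difference of 0.107 against 0.388.

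The NF-kB subunit genes themselves differed, 1 higher and 4 lower in the RelA knockout. RELB was 2.18-fold lower there than in the RelB-labelled libraries (-1.12, SE 0.06, 95% interval -1.25 to -0.99, adjusted p = 1.1e-12 by limma). With p50 knocked out the RELB level was 3894 ± 196 (SD, n = 3), with p52 knocked out 4260.3 ± 49.4 and with the guide for cRel 4322 ± 243, so the RelA knockout had the lowest mean of the 6 groups. RELA differed by -0.85 (SE 0.06, adjusted p = 1.6e-10 by limma), which the guide for RelA bears on directly.

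NFKB2 (ENSG00000077150), which encodes p100, the precursor of p52, stood at 6779, 6822 and 6411 in the RelA knockout, 11210.2, 10994 and 10381 in the RelB-labelled libraries and 8578, 8698 and 8422 in the control. The control lay between the knockouts without overlap, and the difference between them was -0.70 (SE 0.06, adjusted p = 4.0e-10 by limma). REL (ENSG00000162924), the gene of cRel, went the other way, at 1817, 1331 and 1833 in the RelA knockout and 924, 1009 and 881 in the RelB-labelled libraries. The knockouts did not overlap (0.81, SE 0.19, adjusted p = 6.0e-04 by limma), but the control libraries, at 1554, 1717 and 856, spanned the gap between them because control 3 was low. NFKB1, the gene of p105 and p50, was lower by a small amount (-0.17, adjusted p = 0.015 by limma), and this call was lost without RelA replicate 2 (adjusted p = 0.0972, over a range of 1.43e-04 to 0.0972 in the alternatives).

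Some of the proteins that restrain NF-kB are themselves encoded by its target genes. Of 17 members of the list of IkB proteins and NF-kB feedback, 3 were higher and 9 lower in the RelA knockout (70.6% called, against 67.2% of all genes), with a median difference of -0.15 against 0.0048 over all genes. Among members with a mean of at least 100 in the higher group, the largest difference was that of NFKBIE (ENSG00000146232), the inhibitor IkB epsilon. NFKBIE stood at 1401, 1424 and 1253 in the RelA knockout, 4399, 4222 and 4332 in the RelB-labelled libraries and 2345, 2082 and 2271 in the control. The 3 groups did not overlap, with the RelA knockout lowest and the RelB-labelled libraries highest, 3.18-fold apart (-1.67, SE 0.07, adjusted p = 3.0e-14 by limma).

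TNFAIP3 (ENSG00000118503) encodes A20, a ubiquitin-editing enzyme that shuts off signalling to IKK. Its level was 9946, 9132 and 9776 in the RelA knockout, 21118, 21003 and 19596 in the RelB-labelled libraries and 13033, 12376 and 11305 in the control. The same order without overlap was seen, and the knockouts were 2.14-fold apart (-1.10, SE 0.08, adjusted p = 6.2e-11 by limma). TNIP1, whose product binds A20, differed by -0.70, the deubiquitinase gene CYLD by -0.64, the nuclear IkB gene NFKBID by -0.96 and SHARPIN, a subunit of the linear ubiquitin ligase, by -0.60. All 4 were called lower in the RelA knockout.

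NFKBIA (ENSG00000100906), the gene of IkB alpha, had another pattern. It stood at 3212, 3652 and 2997 in the RelA knockout, 3895, 4189 and 4169 in the RelB-labelled libraries and 6812, 6730.1 and 7313 in the control, so both knockouts lay far below the control. The RelA knockout was -1.08 and the RelB-labelled libraries -0.77 from the control on the log2 scale, and the difference between them was small (-0.32, SE 0.07, adjusted p = 2.6e-04 by limma). Higher in the RelA knockout were ZC3H12A, the gene of the ribonuclease Regnase-1 (0.39), NFKBIZ, the gene of IkB zeta (0.28), and the low TNIP3, at 11.2, 13.4 and 23.03 against 4.37, 1.91 and 2.04 (2.16). TNIP2 (-0.20) and RBCK1 (-0.15) were called lower, but both calls were lost without RelA replicate 3 or without RelB replicate 2, at an adjusted p of up to 0.117 over the alternatives for TNIP2 and 0.112 for RBCK1. The other 5 members were not called, with differences and 95% intervals of 0.17 (-0.01 to 0.35) for NFKBIB, -0.14 (-0.32 to 0.04) for BCL3, -0.11 (-0.28 to 0.06) for RNF31, -0.06 (-0.19 to 0.08) for OTULIN and 0.0048 (-0.14 to 0.15) for N4BP1. NFKBIB was called higher without RelA replicate 3 (0.24), without RelB replicate 2 (0.24), with only the 2 groups in the fit (0.17) and with the length trend removed (0.17). BCL3 was called lower under quantile normalisation (-0.21).

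The promoters of members of this list are shown because they hold the kB consensus, the binding motif of NF-kB dimers, in the 250 bases before the gene start. The sequences are from RefSeq on GRCh38.p14, 5′ to 3′ on the gene's strand, and the capitals mark each match of the kB consensus on either strand. Positions count back from the gene start, the base just before it being -1. TNFAIP3 lies at chr6:137867009-137867258, plus strand, with matches beginning at -67 and -55, and NFKBIA at chr14:35404750-35404999, minus strand, with a match at -81.
TNFAIP3: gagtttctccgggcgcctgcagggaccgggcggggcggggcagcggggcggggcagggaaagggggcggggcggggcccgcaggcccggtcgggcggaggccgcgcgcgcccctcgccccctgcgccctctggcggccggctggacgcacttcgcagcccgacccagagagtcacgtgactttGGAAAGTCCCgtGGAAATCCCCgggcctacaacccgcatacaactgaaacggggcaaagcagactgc
NFKBIA: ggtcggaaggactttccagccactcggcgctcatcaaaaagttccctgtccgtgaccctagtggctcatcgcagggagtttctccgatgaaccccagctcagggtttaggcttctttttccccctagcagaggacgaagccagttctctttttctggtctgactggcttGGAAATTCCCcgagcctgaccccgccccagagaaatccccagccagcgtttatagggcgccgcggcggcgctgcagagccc
Shares are of promoters of 300 bases, from 250 before to 50 after the start, and no printed match overlapped another motif searched. The kB consensus was found in 5.72% of all 27305 promoters, in 6.54% of the 9953 tested genes that matched a promoter and in 5 of the 15 matched members of the feedback list (33.3%). It was found in 8.1% of the promoters of genes called lower in the RelA knockout than in the RelB-labelled libraries and in 5.47% of those called higher. Among genes called lower in the RelA knockout than in the control the share was 13.8%, and among those called higher 8.1%. For the RelB-labelled libraries against the control it was 5.61% of the lower and 7.67% of the higher genes. A match describes the letters of this window and no binding was measured.

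In the list of IKK, NIK and TRAF signalling, 7 of 22 members were higher and 8 lower in the RelA knockout (68.2% called, median -0.06). BIRC3 (ENSG00000023445), which encodes cIAP2, part of the complex that keeps NIK low, stood at 5136, 4844 and 5623 in the RelA knockout, 11674, 11676 and 11590.2 in the RelB-labelled libraries and 7629.7, 7550.3 and 7302 in the control. The groups did not overlap and the knockouts were 2.24-fold apart (-1.17, SE 0.06, adjusted p = 1.5e-13 by limma). Its neighbour and relative BIRC2, the gene of cIAP1, differed in the same direction by -0.48. The BIRC3 promoter lies at chr11:102317234-102317483, plus strand, and its matches of the kB consensus, in capitals, begin at -199 and -135.
BIRC3: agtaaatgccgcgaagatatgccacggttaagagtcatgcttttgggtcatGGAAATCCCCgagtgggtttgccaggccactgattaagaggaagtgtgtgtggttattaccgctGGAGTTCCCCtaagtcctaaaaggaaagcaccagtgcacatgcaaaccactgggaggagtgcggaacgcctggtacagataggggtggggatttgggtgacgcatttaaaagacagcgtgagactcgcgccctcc
RIPK2, a kinase gene of NOD receptor signalling, was lower in the RelA knockout at 776, 740.2 and 791 against 1433, 1368 and 1475 (-0.89, adjusted p = 2.9e-10 by limma). RIPK1, a kinase gene downstream of TNF receptors, was higher at 642, 659 and 684 against 405, 404 and 411, with the control at 717, 690.1 and 696 (0.70, adjusted p = 1.8e-09 by limma). For RIPK1 the RelA knockout lay just below the control, a difference that was not called (-0.08, adjusted p = 0.476 by limma). The RelB-labelled libraries lay far below the control (-0.78).

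Of the genes that join the B-cell receptor to IKK, BCL10 (0.40) was higher in the RelA knockout, and MALT1 was not called (0.09, 95% interval -0.06 to 0.23). The IKK genes differed in opposite directions, IKBKB by -0.34 and CHUK, the IKK alpha of the non-canonical arm, by 0.32. TRAF1, an adaptor bound by LMP1, was higher in the RelA knockout (0.32), and so was TRAF3, which recruits NIK for degradation (0.25; lost under quantile normalisation, adjusted p = 0.0595, over a range of 8.35e-06 to 0.0595). MAP3K14, the gene of NIK, stood at 1569, 1481 and 1387 in the RelA knockout, 1298, 1249.7 and 1159 in the RelB-labelled libraries and 1185, 1154 and 1011 in the control. Its difference of 0.26 (adjusted p = 0.011 by limma) lost its call without RelA replicate 1, without RelB replicate 3 and under quantile normalisation (adjusted p up to 0.0741). Lower in the RelA knockout were NEDD4L (-0.42), TRAF3IP2 (-0.35), TAB3 (-0.28) and TAB1 (-0.19; the last lost without RelA replicate 3 or RelB replicate 2, adjusted p up to 0.0755). The 6 other members not called lay between -0.15 for TAB2 and 0.10 for MAP3K7, with TRADD at -0.13, TRAF5 at -0.07, TRAF4 at -0.05 and TRAF2 at -0.02. TAB2 was called lower without RelA replicate 3 (-0.20), with only the 2 groups in the fit (-0.15), under quantile normalisation (-0.23) and by DESeq2 (-0.16). TRAF4 was called lower under quantile normalisation (-0.16), and MALT1 (0.20) and MAP3K7 (0.15) were called higher with the length trend removed.

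**Figure D3:**
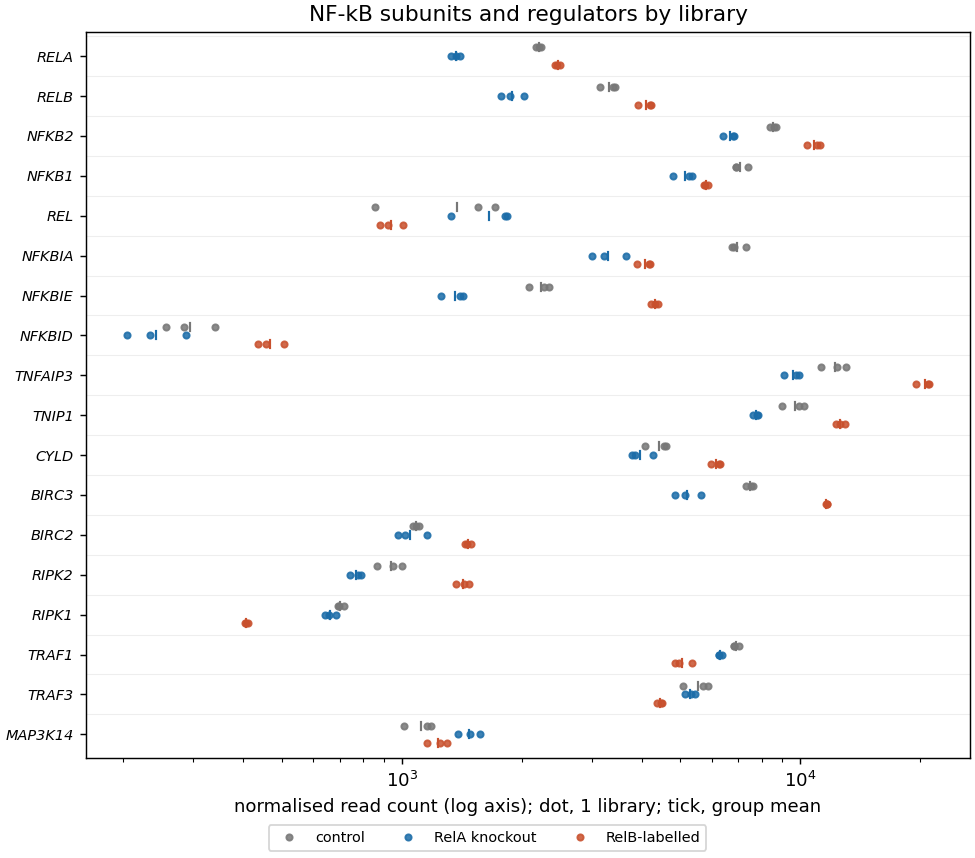
Each dot is 1 library and each tick a group mean, as normalised read counts on a log x axis, for subunit and regulator genes of NF-kB in the control (grey), the RelA knockout (blue) and the RelB-labelled libraries (orange). For TNFAIP3, NFKBIE and BIRC3 the control lies between the knockouts, and for NFKBIA both knockouts lie below it.

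Ligands and receptors of the TNF superfamily, which feed both NF-kB arms, were mostly lower in the RelA knockout: 7 of 23 tested members were higher and 14 lower (91.3% called, median -0.74). TNFRSF14 (ENSG00000157873), the receptor HVEM, stood at 1019.95, 1032 and 1039.7 in the RelA knockout, 4592, 4694 and 4855 in the RelB-labelled libraries and 1374, 1202 and 1315 in the control. The RelB-labelled libraries stood far above both other groups, 4.57-fold above the RelA knockout (-2.19, SE 0.07, adjusted p = 5.5e-16 by limma). TNFRSF9 (ENSG00000049249), the costimulatory receptor 4-1BB, stood at 54.9, 36.9 and 49.5, 327, 249.6 and 249.99 and 204, 145 and 163 in the same order of groups. Here the control lay between the knockouts without overlap, and the RelA knockout was -1.84 below the control while the RelB-labelled libraries were 0.69 above it. TNFRSF13C, the BAFF receptor that signals through NIK, differed by -1.50 and CD40, the receptor whose signal LMP1 mimics, by -0.96.

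TNF (ENSG00000232810) itself went the other way, at 273, 307 and 290.1 in the RelA knockout, 69.99, 80.3 and 73.5 in the RelB-labelled libraries and 358, 349.96 and 432 in the control. The RelB-labelled libraries held the lowest level, and the RelA knockout was 3.85-fold above them (1.95, SE 0.11, adjusted p = 8.9e-13 by limma). LTA, the gene of lymphotoxin alpha, was at 369, 464 and 382 in the RelA knockout and 424, 545 and 499.97 in the RelB-labelled libraries, below the control at 675, 585 and 827 in both, and was not called between them (-0.27, 95% interval -0.54 to -0.0033). Without RelA replicate 2 (-0.37), without RelB replicate 1 (-0.37) and with only the 2 groups in the fit (-0.27) LTA was called lower in the RelA knockout.

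Of 15 tested chemokine and cytokine genes, 4 were higher and 10 lower in the RelA knockout (93.3% called, median -0.68). EBI3 (ENSG00000105246), a cytokine subunit first found in EBV-infected B cells, stood at 2977, 3149.6 and 2717 in the RelA knockout, 12241, 11314 and 11559 in the RelB-labelled libraries and 4685, 4249.8 and 4858 in the control. CCL22 (ENSG00000102962), a chemokine that attracts T cells bearing CCR4, stood at 1904, 1801 and 1812, 7109.9, 7274 and 7379 and 2831, 2353 and 2494 in the same order. Of these 3 groups, both genes were lowest in the RelA knockout and highest in the RelB-labelled libraries, with no overlap. The differences were -1.99 (adjusted p = 5.5e-16) and -1.98 (adjusted p = 5.5e-15 by limma). CCL22 was lower still with cRel knocked out, at 494 ± 64.0 (SD, n = 3), and with p50 knocked out, at 1355 ± 55.2. IL32 differed by -1.80, and its RelA knockout level of 1048 ± 41.9 (SD, n = 3) was below that of the control, 2250.1 ± 429. CXCL10 and CXCL9, chemokines induced by interferon, were higher in the RelA knockout. CXCL10 stood at 522, 641 and 709 against 198, 211 and 203 in the RelB-labelled libraries (1.60), and CXCL9 at 51.5, 60.4 and 80.6 against 5.83, 13.4 and 14.3 (2.48).

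The CCL22 promoter is shown for a gene outside the feedback list, at chr16:57358533-57358782, plus strand. Its single match of the kB consensus, in capitals, begins at -185.
CCL22: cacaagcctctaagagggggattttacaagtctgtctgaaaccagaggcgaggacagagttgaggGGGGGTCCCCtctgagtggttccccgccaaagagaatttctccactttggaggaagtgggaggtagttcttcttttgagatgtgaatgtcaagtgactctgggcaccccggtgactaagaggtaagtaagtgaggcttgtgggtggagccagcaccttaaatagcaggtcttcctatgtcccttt

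Costimulatory and adhesion molecules had the lowest median of the 31 pathway lists: 3 of 20 were higher and 15 lower in the RelA knockout (90.0% called, median -0.80). CD69 (ENSG00000110848), an early activation antigen, stood at 129.9, 135 and 174 in the RelA knockout, 903, 974 and 991 in the RelB-labelled libraries and 269, 221 and 281 in the control. CD200 (ENSG00000091972), an inhibitory surface ligand, stood at 509, 524 and 564, 2524, 2372 and 2599 and 548, 456 and 509 in the same order. For CD69 the 3 groups did not overlap, whereas for CD200 the RelA knockout and the control overlapped and the RelB-labelled libraries stood apart. The differences between the knockouts were -2.71 for CD69, -2.23 for CD200, -1.83 for SLAMF1, a self-binding lymphocyte receptor, and -1.76 for CD274, which encodes PD-L1. ICAM1, the ligand of LFA-1 and a known NF-kB target, stood at 3339.8, 3295 and 3135 in the RelA knockout, 6339, 6569 and 5845 in the RelB-labelled libraries and 5142, 4839 and 4857 in the control. The 3 groups of ICAM1 did not overlap (-0.94, adjusted p = 3.5e-10 by limma).

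Chemokine and homing receptors split, 8 of 17 higher and 7 lower (88.2% called, median 0.02). CXCR3 (ENSG00000186810), the receptor of CXCL9 and CXCL10, stood at 784, 833 and 622 in the RelA knockout, 72.9, 71.7 and 67.3 in the RelB-labelled libraries and 530.4, 638 and 670.2 in the control. It had the largest positive difference of the genes named for their size, 10.4-fold (3.37, SE 0.15, adjusted p = 4.1e-14 by limma), with the RelA knockout and control overlapping. ACKR3, a scavenging receptor for CXCL12, was lower at 328, 325 and 374 against 1534, 1509 and 1502 (-2.14). ITGB7, an integrin chain for gut homing, was higher in the RelA knockout by 1.08.

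The lists of B-cell stages and identity had 55.6% to 79.2% of their tested members called, against 67.2% of all genes tested. Among germinal-centre genes 9 of 16 were higher and 3 lower in the RelA knockout (75.0% called, median 0.52), and in the plasma-cell programme 10 of 24 were higher and 9 lower (79.2%, median 0.0021). BCL6 (ENSG00000113916), the repressor that holds the germinal-centre state, stood at 226, 231 and 221 in the RelA knockout, 40.8, 39.2 and 32.7 in the RelB-labelled libraries and 199.6, 276 and 235 in the control. PRDM1 (ENSG00000057657), the gene of BLIMP1, which drives plasma-cell differentiation and opposes BCL6, stood at 1123, 1294 and 1119, 315, 284 and 314 and 830.4, 979 and 899.7 in the same order. Both of these opposing regulators were lowest in the RelB-labelled libraries, without overlap, with differences of 2.56 (adjusted p = 1.8e-12) and 1.95 (adjusted p = 2.5e-13 by limma). HHEX, a transcription factor of germinal-centre B cells, differed by 2.31 and EZH2, a histone methyltransferase gene, by 1.03. SDC1, the plasma-cell antigen CD138, differed by -1.54, SLAMF7 by -1.01 and GCSAM, a germinal-centre signalling gene, by -1.30. Of the B-cell identity list 3 of 27 were higher and 12 lower (55.6% called, median -0.10), with -1.40 for CD37, -1.11 for the kinase gene BLK, -1.06 for the inhibitory receptor CD22 and -0.86 for the transcription factor EBF1.

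Among genes of EBV-driven growth and Notch-RBPJ signalling, 3 of 23 were higher and 16 lower in the RelA knockout (82.6% called, median -0.47). MYC (ENSG00000136997), a growth regulator that EBV switches on, stood at 8016, 7342 and 7930.5 in the RelA knockout, 20173, 19874 and 19308 in the RelB-labelled libraries and 8017, 7339 and 7983 in the control. The RelA knockout and the control overlapped and the RelB-labelled libraries were 2.55-fold above the RelA knockout (-1.35, SE 0.09, adjusted p = 1.2e-11 by limma). PIM2, a survival kinase gene, had the same pattern at 1401, 1379 and 1412 in the RelA knockout, 7171, 6796 and 7111 in the RelB-labelled libraries and 1461, 1159 and 1337 in the control (-2.33). HES1, a textbook Notch target, stood at 15.7, 23.5 and 24.2 against 99.2, 132 and 104 (-2.36), and the Notch ligand gene DLL1 at 12.3, 13.4 and 4.61 against 109, 137 and 106 (-3.52).

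Genes of DNA synthesis and cell division were higher in the RelA knockout. All 26 tested genes of DNA replication and S phase and all 27 of mitosis were called higher (100% each, against 34.1% of all genes called higher), with medians of 0.91 and 0.96. In the RelA knockout none of the 26 and 1 of the 27 differed from the control, whereas in the RelB-labelled libraries all 26 and all 27 were below it. CDC6 (ENSG00000094804), which licenses replication origins, stood at 2459, 2513 and 2383 in the RelA knockout, 943, 919.8 and 888 in the RelB-labelled libraries and 2376, 2544 and 2626 in the control. CCNB1 (ENSG00000134057), the cyclin of mitotic entry, stood at 3848, 4419 and 4191, 1759.98, 1606 and 1620.3 and 4066, 4267 and 4580.5 in the same order. For both genes the RelA knockout overlapped the control and the RelB-labelled libraries stood below all 6 (1.42, adjusted p = 2.1e-14, and 1.32, adjusted p = 2.4e-13 by limma). Others were RRM2 of nucleotide supply (1.32), MCM10 of the replication fork (1.32), the spindle motor gene KIF11 (1.28), HMMR (1.31) and the mitotic kinase gene AURKA (0.96). In bulk RNA a smaller share of cells in a phase and less RNA per cell cannot be told apart.

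Of the G1 cyclins, CDKs and inhibitors 7 of 16 were higher and 5 lower (75.0% called, median 0.24). E2F2, an activator of S-phase genes, stood at 2919, 2937 and 2662 in the RelA knockout, 822, 839 and 729.6 in the RelB-labelled libraries and 2196, 2430.03 and 2252 in the control (1.83, adjusted p = 6.8e-13 by limma). CDKN1B, the gene of the inhibitor p27, went the other way at 1365, 1372 and 1478 against 2422, 2458 and 2701 (-0.85). E2F3 (0.67) and RBL1, a pocket-protein gene (1.12), were higher in the RelA knockout.

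The promoters of PCNA, the sliding clamp of DNA polymerase, and KIF11 are shown as examples of the motifs these lists share. PCNA itself stood at 14429, 15890.1 and 15094 in the RelA knockout and 7434, 8046 and 8256 in the RelB-labelled libraries (0.94). The capitals mark an E2F motif, TTTNNCGC on either strand, beginning at -59 in PCNA (chr20:5126623-5126872, minus strand), and a CHR motif, TTTGAA on either strand, beginning at -28 in KIF11 (chr10:92592880-92593129, plus strand).
PCNA: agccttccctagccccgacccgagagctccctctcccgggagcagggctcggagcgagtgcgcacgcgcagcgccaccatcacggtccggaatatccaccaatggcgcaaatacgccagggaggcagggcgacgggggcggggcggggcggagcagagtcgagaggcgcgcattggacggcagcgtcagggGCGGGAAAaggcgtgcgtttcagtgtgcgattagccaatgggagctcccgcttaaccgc
KIF11: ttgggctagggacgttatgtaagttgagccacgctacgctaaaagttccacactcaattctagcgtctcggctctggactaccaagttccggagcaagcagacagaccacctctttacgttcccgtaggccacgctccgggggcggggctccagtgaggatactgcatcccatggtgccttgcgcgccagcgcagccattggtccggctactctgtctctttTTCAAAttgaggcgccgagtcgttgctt
The E2F motif was in 15 of 23 matched promoters of the replication list (65.2%) and in 8.7% of the mitosis list. It was in 6.9% of all promoters and 10.8% of those of tested genes. The CHR motif was in 17 of 23 matched promoters of the mitosis list (73.9%) and in 4.35% of the replication list. It was in 15.4% of all promoters and 9.97% of those of tested genes.

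Genes of growth and translation divided into groups that moved in opposite directions. Of 22 tested MYC and ribosome biogenesis targets 21 were higher in the RelA knockout and none lower (95.5% called, median 0.60), although MYC mRNA itself was lower there. NOP56 (ENSG00000101361), of the small nucleolar particles that modify ribosomal RNA, stood at 7235, 7879 and 7217 in the RelA knockout, 3657, 3751 and 3527 in the RelB-labelled libraries and 7177, 7697 and 8882 in the control (1.03, adjusted p = 8.7e-12 by limma). GAR1 (1.137), RRS1 (1.16) and WDR43 (0.82), also of ribosome assembly, were higher too. All 59 tested genes of cytosolic ribosomal proteins were lower in the RelA knockout (100% called, median -0.58, 57 of 59 under quantile normalisation). RPL31 (ENSG00000071082) stood at 13613, 15007 and 14134 in the RelA knockout, 26439, 27514 and 30898 in the RelB-labelled libraries and 15467, 14243 and 18953 in the control, with the RelB-labelled libraries above the rest (-0.99, adjusted p = 1.9e-08 by limma). RPS25 (-0.95) and RPS27 (-0.90) were lower as well. Ribosomal protein genes took 5.79% to 6.24% of reads with RelA knocked out, 8.74% to 9.67% in the RelB-labelled libraries and 6.06% to 7.40% in the control.

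Of 19 tested translation factors and hosts of small nucleolar RNAs none was higher and 16 were lower (84.2% called, median -0.48), led by the non-coding GAS5 (-1.13) and ZFAS1 (-0.98), then EIF3L (-0.59) and EIF3H (-0.56), subunits of initiation factor eIF3. Of the 13 mitochondrially encoded transcripts none was higher and 3 were lower (23.1% called, median -0.07). With only the 2 groups in the fit 2 were higher and 6 lower. The 3 were MT-ND4L (-0.62), MT-ND4 (-0.65) and MT-CO1 (-0.43), and the last lost its call without RelA replicate 2, without RelB replicate 3 and under quantile normalisation (adjusted p up to 0.494). Nuclear genes of the respiratory chain were called in 15 of 29 cases, 9 higher and 6 lower (51.7%, median 0.08), among them NDUFB5 (-0.62) and NDUFA6 (0.40) of complex I and ATP5A1 (0.25) and ATP5G1 (0.34) of the ATP synthase.

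Regulators of survival and death were split, 9 of 21 higher and 7 lower (76.2% called, median 0.09). BCL2 (ENSG00000171791), the founding inhibitor of mitochondrial apoptosis, stood at 2380.3, 2266 and 2594 in the RelA knockout, 7012, 7163 and 7133 in the RelB-labelled libraries and 2812, 2621 and 2122 in the control. The RelB-labelled libraries were 2.95-fold above the RelA knockout (-1.56, SE 0.09, adjusted p = 1.6e-12 by limma), and the RelA knockout overlapped the control. BCL2A1, the gene of BFL1 and a known NF-kB target, stood at 1479, 1576 and 1590.01 in the RelA knockout, 2507, 2884 and 3147 in the RelB-labelled libraries and 2435, 2182 and 2683 in the control (-0.87). There the RelA knockout was the group that stood apart, below all 6 other libraries. BCL2L2 differed by -1.33 and BIRC5, the gene of survivin, which also acts in mitosis, by 1.34.

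Of the p53 targets 5 of 28 were higher and 15 lower in the RelA knockout (71.4% called, median -0.30). The lower genes included GDF15, a secreted stress factor, at 20.2, 20.1 and 16.1 against 112, 147 and 161 (-2.83), GADD45A (-1.03) and the death receptor gene TNFRSF10B (-0.84). C12orf5, which encodes the metabolic enzyme TIGAR, was higher (0.83).

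Interferon-stimulated genes showed no common direction between the knockouts, 12 of 34 higher and 11 lower (67.6% called, median 0.05). Against the control, 18 of the 34 were higher and none lower in the RelA knockout (52.9%, against 5.55% of all genes), and 20 were higher and 6 lower in the RelB-labelled libraries (76.5%, against 67.8%). IFIT1 (ENSG00000185745), which binds foreign RNA, stood at 95.2, 101 and 106 in the RelA knockout, 14.6, 15.3 and 14.3 in the RelB-labelled libraries and 43.01, 49.3 and 51.7 in the control. The 3 groups did not overlap, and the knockouts were 6.46-fold apart (2.69, SE 0.27, adjusted p = 1.5e-08 by limma). OASL, of the oligoadenylate synthetase family, stood at 190.3, 181 and 196 in the RelA knockout, 65.6, 50.7 and 38.8 in the RelB-labelled libraries and 73.9, 81.8 and 82.1 in the control (1.88), and SAMD9 differed by 0.95. PARP14, a mono-ADP-ribosyltransferase gene, went the other way (-0.79).

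The IFIT1 promoter lies at chr10:89392373-89392622, plus strand. The capitals mark the interferon-stimulated response element, spelled TTTC, any 2 bases and TTTC, on either strand, with matches beginning at -116 and -103.
IFIT1: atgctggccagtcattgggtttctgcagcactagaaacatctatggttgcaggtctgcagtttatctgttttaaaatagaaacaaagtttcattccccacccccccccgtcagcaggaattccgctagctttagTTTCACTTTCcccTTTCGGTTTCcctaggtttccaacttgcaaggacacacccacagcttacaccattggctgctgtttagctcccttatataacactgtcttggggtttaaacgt
This motif was in 17 of 25 matched promoters of the interferon list (68%), against 3.65% of all promoters and 2.92% of those of tested genes.

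Guanylate-binding and IRF1 genes were 3 higher and 8 lower of 14 (78.6% called, median -0.38), with -1.61 for GBP2, -0.74 for JAK3, -0.64 for STAT5A and -0.57 for the transcription factor IRF1. In MHC class I presentation 4 of 21 were higher and 15 lower (90.5% called, median -0.36). HLA-F (-1.41), HLA-E (-0.70) and the peptide-trimming ERAP2 (-0.89) were lower, and the chaperone gene CALR was higher (0.82). Reads of HLA genes can be shared between near-identical copies, so their values are uncertain. In MHC class II presentation 4 of 19 were higher and 9 lower (68.4% called, median -0.11), with the protease gene CTSS (-0.82), HLA-DOA (-0.76), IFI30 (-1.66) and HLA-DQA1 (-0.64) all lower.

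Metabolic and stress lists were mixed. In glycolysis and hypoxia 3 of 26 were higher and 14 lower (65.4% called, median -0.21). SLC2A3 (ENSG00000059804), the glucose transporter GLUT3, stood at 248.6, 159 and 199 in the RelA knockout, 1852, 2257 and 2332 in the RelB-labelled libraries and 194, 214 and 226 in the control. Its RelB-labelled level was 10.7-fold the RelA knockout level (-3.42, SE 0.13, adjusted p = 5.7e-15 by limma), with the RelA knockout and control overlapping. ALDOC (-1.62), ENO2 (-1.38) and VEGFA (-1.24), genes that respond to hypoxia, were lower in the RelA knockout too. Of the ATF4 and unfolded-protein response 17 of 27 were higher and 2 lower (70.4% called, median 0.25), with the chaperone gene HSPA5 (0.94), the amino acid transporter gene SLC7A5 (1.31) and the serine synthesis gene PSAT1 (0.85) higher and the phosphatase subunit gene PPP1R15A lower (-1.19). In cholesterol and fatty acid synthesis 8 of 21 were higher and 4 lower (57.1% called, median 0.15; 5 higher without RelB replicate 2 or 3), with SREBF1 (0.66) higher and STARD4 (-0.87) and MSMO1 (-0.61) lower.

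Of 27 immediate-early, AP-1 and stress genes 11 were higher and 9 lower (74.1% called, median 0.06). EGR1, an early growth response factor, stood at 526, 451 and 624 in the RelA knockout, 3278, 3159 and 2906 in the RelB-labelled libraries and 771, 693 and 951 in the control (-2.55). IER3, a stress-induced survival gene, went the other way at 1872, 1913 and 1643, 411, 498 and 479.6 and 1896, 1853 and 1945 in the same order (1.97). DUSP2, a phosphatase gene of MAP kinases, differed by -1.70. The heat-shock gene HSPA1B stood at 156, 183 and 159 in the RelA knockout and 2918, 1768 and 1441 in the RelB-labelled libraries (-3.55), and its reads can be shared with its near-identical copy HSPA1A, so this value is uncertain. In cytoskeleton and migration 13 of 24 were higher and 5 lower (75.0% called, median 0.27), with 1.63 for vimentin, VIM, 1.16 for lamin B1, LMNB1, 1.03 for CORO1A and 0.80 for ACTG1. Of 7 GIMAP GTPases 2 were higher and 4 lower (85.7% called, median -0.31), GIMAP7 by 0.81, GIMAP6 by 0.26, GIMAP5 by -0.49 and GIMAP8 by -0.37.

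**Figure D4:**
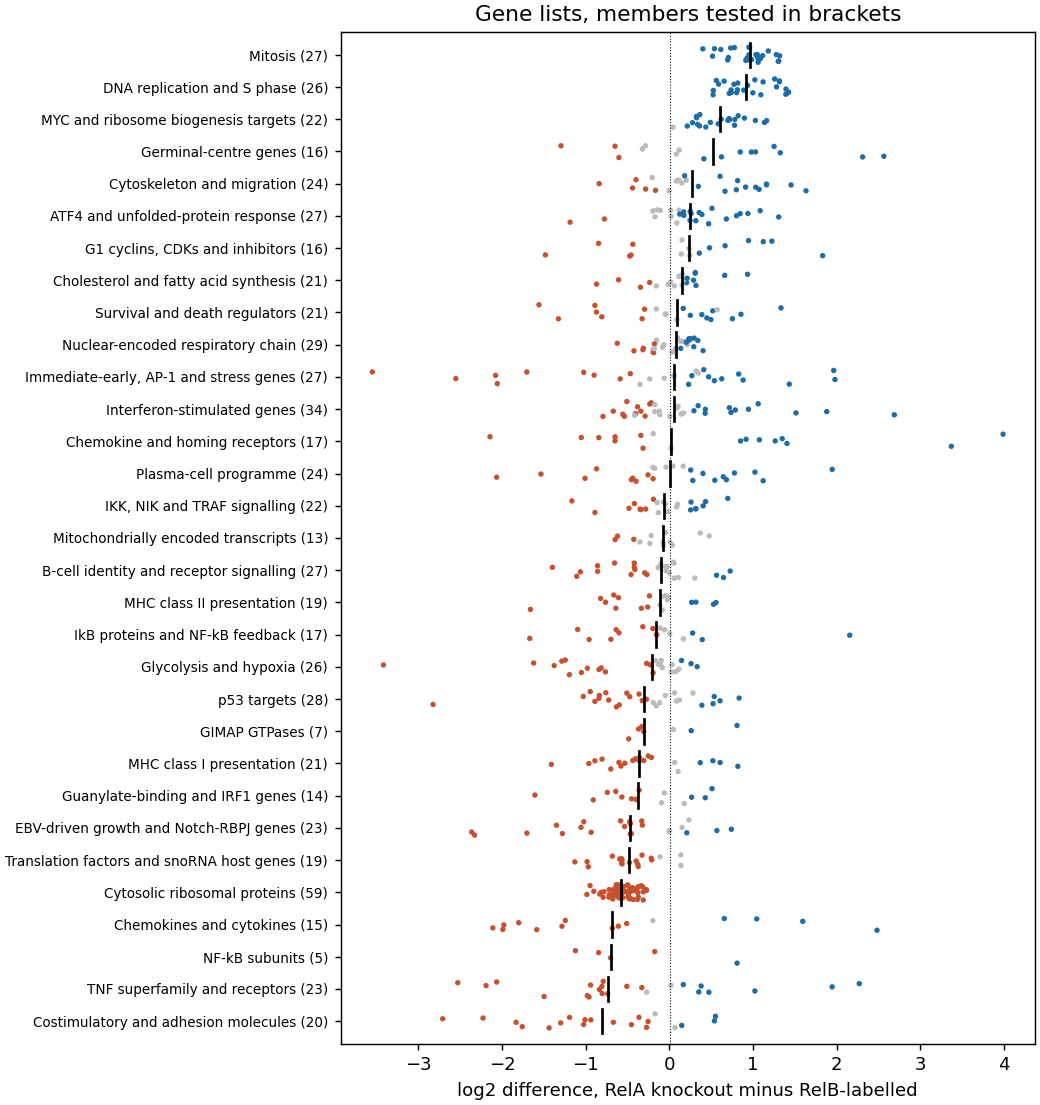
Each point is 1 tested gene and each row a gene list, with the number tested in brackets, and the x axis is the log2 difference of RelA knockout minus RelB-labelled libraries. Blue points were called higher in the RelA knockout, orange lower and grey not called, the black tick is the list's median, and the dotted line is the median of all genes. Mitosis (0.96) and DNA replication (0.91) have the highest medians, and costimulatory and adhesion molecules (-0.80) the lowest, of the pathway lists drawn.

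The genes furthest apart, with non-overlapping libraries and a mean of at least 100 in the higher group, were led in the RelA knockout by CXCR3. PTGER4, a receptor of prostaglandin E2, stood at 254, 279.5 and 228 against 39.4, 21.99 and 17.3 in the RelB-labelled libraries (3.30). The transcription factor gene GATA3 stood at 392, 441 and 356 against 72.9, 95.6 and 95.9 (2.16). For both genes the RelA knockout overlapped the control and the RelB-labelled libraries lay below it. Further genes were the connexin gene GJB2 (2.92), BCAR3 (2.53), KIAA1671 (2.43) and SORBS2 (2.23), beside BCL6, HHEX and IFIT1 above. Some of these genes were low in other knockouts too. CXCR3 had means of 150 with p50 knocked out, 226 with p52 knocked out and 613 in the control, and GATA3 106, 218 and 444. Others, such as KIAA1671 at 63.4, 97.1 and 61.4, were not below the control in either.

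Histone genes made up 5 of these 15: HIST1H2BC (3.31), HIST1H1C (2.86), HIST1H2BJ (2.76), HIST1H2BK (2.67) and HIST1H2AC (2.44). HIST1H2AC (ENSG00000180573) stood at 1382, 1389 and 1186 in the RelA knockout, 207, 256 and 267 in the RelB-labelled libraries and 775, 802 and 896 in the control, with no overlap among the 3 groups. Over all 21 tested genes with a HIST1H to HIST4H symbol, 19 were higher in the RelA knockout and none lower, with a median of 1.87. Over all genes tested 34.1% were called higher. The set was chosen after its values were seen and the 5 genes above are among the 19, so the count is a description only. Replication-dependent histone mRNAs mostly lack a poly(A) tail, so libraries of polyadenylated RNA hold only part of them, and reads can be shared between their near-identical copies.

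Beside the control, the lowest genes in the RelA knockout were mostly genes that stood at a high level in the RelB-labelled libraries. Some of them were raised in other knockouts too. DBNDD1 had means of 279 with p50 knocked out, 280 with p52 knocked out and 55.2 in the control, and DLL1 44.2, 68.9 and 10.2. Others, such as HSPA1B at 171, 144 and 146, stayed near the control in both. NRCAM (ENSG00000091129), a cell-adhesion molecule of neurons, stood at 103, 92.8 and 105 in the RelA knockout, 1837, 1674 and 1655 in the RelB-labelled libraries and 147, 161 and 101 in the control. RGS1 (ENSG00000090104), a brake on chemokine receptor signalling, stood at 1954, 1801 and 2312, 26439, 20568 and 23682 and 3369.9, 2694 and 3460.4 in the same order. GNAQ, the alpha subunit of a Gq protein, stood at 80.6, 55.9 and 55.3, 720.3, 710.4 and 729.6 and 52.9, 61.1 and 52.998 likewise. The differences were -4.09 for NRCAM, -3.54 for RGS1 and -3.50 for GNAQ, and for RGS1 the RelA knockout also lay below the control without overlap. HSPA6, an inducible heat-shock protein, stood at 4.48, 7.83 and 3.45 in the RelA knockout, 174, 93.7 and 106 in the RelB-labelled libraries and 2.21, 1.97 and 5.17 in the control (-4.33). Its means with cRel, p50 and p52 knocked out were 3.67, 4.89 and 5.95. HSPA6 thus passed the filter of a mean of at least 10 only through the RelB-labelled libraries, where it was high. Others were the complement gene C3 (-3.94), TBC1D30 (-3.93), CDC42EP5 (-3.89), DBNDD1 (-3.73), GBP6 (-3.58), IGFBP2 (-3.47), the actin-binding CALD1 (-3.38) and ENTHD1 (-3.30), beside HSPA1B, DLL1 and SLC2A3 above. For several of these the RelA knockout level was near 10 normalised read counts, so the size of the difference depends on the pseudocount.

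**Figure D5:**
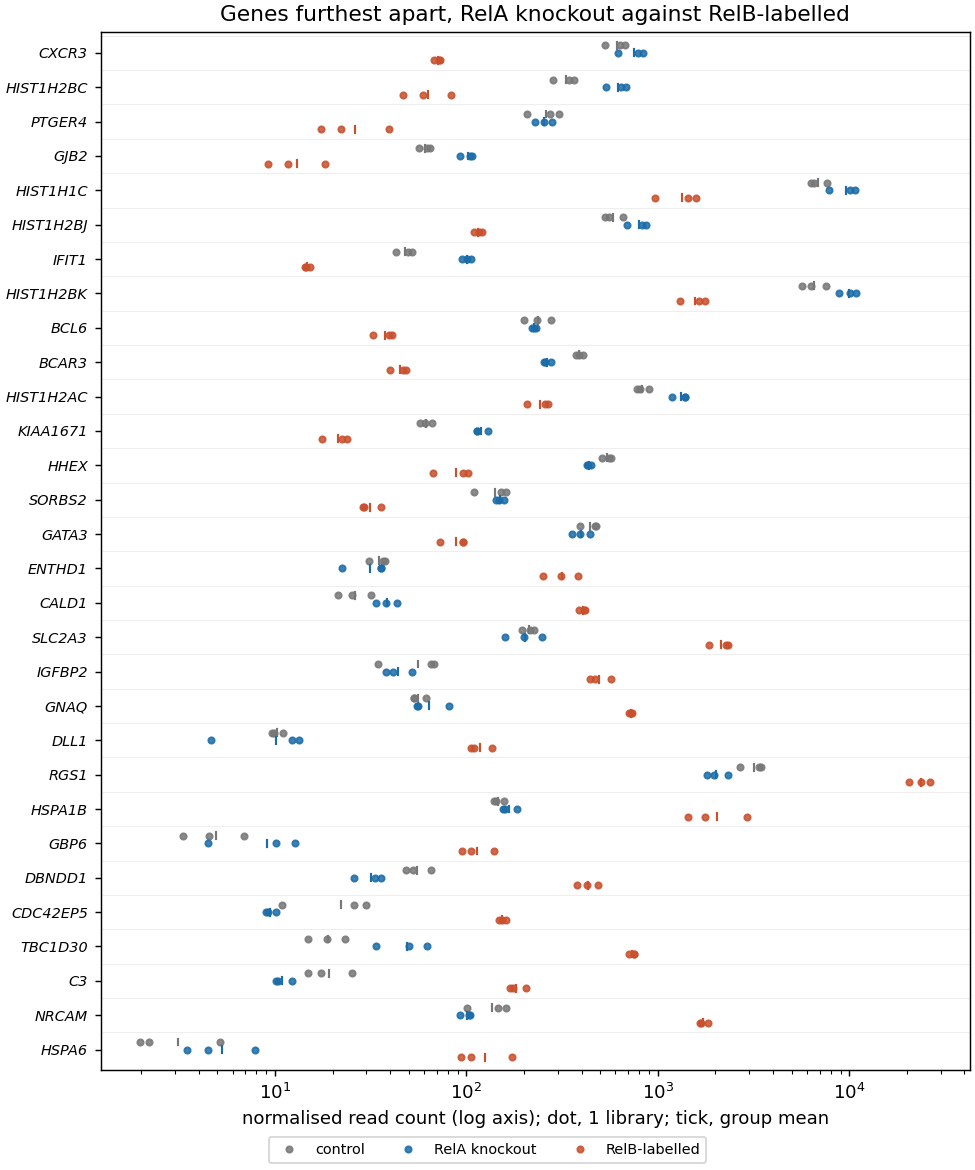
Each dot is 1 library and each tick a group mean, as normalised read counts on a log x axis, for the 15 highest and 15 lowest differences by the naming rule, in the control (grey), the RelA knockout (blue) and the RelB-labelled libraries (orange). The grey and blue dots lie nearer to each other than to the orange dots for most genes, as for SLC2A3 and CXCR3.

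A smaller set of genes stood on opposite sides of the control. Higher than the control in the RelA knockout and lower in the RelB-labelled libraries were KIAA1671 (0.94 and -1.50 from the control), HIST1H4H (0.91 and -0.91), HIST1H2BC (0.91 and -2.41), RHOB, a small GTPase gene (0.87 and -0.90), IFIT1 (1.05 and -1.64) and GJB2 (0.72 and -2.19). The change of IFIT1 in the RelA knockout against the control lost its call in 5 of 16 alternatives, each leaving out 1 library, and that of GJB2 in 8 of 16. Lower in the RelA knockout and higher in the RelB-labelled libraries were ACHE, CXCL12, XCL1, NIPAL4, TREM1 and MAP7D2. CXCL12 (ENSG00000107562), the ligand of CXCR4 and ACKR3, stood at 203, 142 and 178 in the RelA knockout, 779, 833 and 879.5 in the RelB-labelled libraries and 346, 345 and 332 in the control. ACHE, the gene of acetylcholinesterase, stood at 23.5, 19.01 and 14.97, 136, 129 and 142 and 62.9, 46.3 and 52.998 in the same order. Neither gene's groups overlapped, with -0.98 and 1.28 from the control for CXCL12 and -1.46 and 1.32 for ACHE. The other 4 were at -1.05 and 1.06 for the chemokine gene XCL1, -1.12 and 0.98 for NIPAL4, -0.94 and 1.68 for TREM1 and -0.87 and 2.23 for MAP7D2. The RelA change against the control lost its call in 2 of 17 alternatives for TREM1 and in 5 of 16 for MAP7D2. XCL1 has a near-identical copy, so its value is uncertain.

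Other genes moved the same way in both knockouts and were not called between them. GBP4 (ENSG00000162654), an interferon-induced GTPase, stood at 626, 667 and 685 in the RelA knockout, 675, 772 and 666 in the RelB-labelled libraries and 339, 327 and 303 in the control. EOMES (ENSG00000163508), a T-box transcription factor, stood at 591, 540.03 and 547, 614, 489.5 and 434 and 898, 926 and 962 in the same order. Both knockouts stood above the control for GBP4 and below it for EOMES, with 95% intervals of the difference between the knockouts of -0.27 to 0.08 and -0.12 to 0.40. The others by the same rule were NMNAT2 (-0.16 between the knockouts, 95% interval -0.53 to 0.20), TGIF1 (-0.06, -0.47 to 0.35) and LGALS3BP (0.29, -0.07 to 0.65), all above the control in both, and TFEC (-0.22, -0.46 to 0.03), PEX5L (-0.16, -0.48 to 0.16) and LTA, all below it. LGALS3BP was called higher in the RelA knockout under quantile normalisation (0.53, adjusted p = 0.0071 by limma), and LTA was called in the settings given above. The 2 comparisons share their controls. An interval that spans 0, as for all of these genes but LTA, does not show that the knockouts act alike. That of LTA, given above, lay just below 0.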

How the data were processed

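Polyadenylated RNA was measured in 18 GM12878 libraries, 3 for each of 6 groups taken from the sample titles. The submitters' processing notes name STAR 2.5.2b, featureCounts 1.5.1, DESeq2 1.14.1 and the build GRCh37. Libraries were made with a directional kit from 1 µg of total RNA, per the labels' protocols. The sources used here do not give the annotation release, gene filters or strand setting, so genes that overlap, antisense pairs included, cannot be told apart. The deposited signal is a read count divided by a size factor of its library, and dividing that factor out gave whole reads within 0.0001 for 100% of 308790 values. These recovered reads per library ranged from 15.2 M to 37.5 M.

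The main test was limma 3.58.1 in R 4.3.3 with an intensity trend on log2(value + 1), pseudocount 1, two-sided, in 1 fit of all 18 libraries with a mean per group and 12 residual degrees of freedom. It was tested on simulated data in which few genes changed. In these data 67.2% of genes were called, so that test does not bear on so broad a difference. Alternatives were edgeR 4.0.16 and DESeq2 1.42.0 on the recovered reads, other pseudocounts, filters and scalings, removal of a length trend (GENCODE 29 lengths, 99.85% of tested genes), a replicate block and leaving out libraries. Same-numbered RelA and RelB-labelled libraries correlated at 0.0448, 0.0919 and 0.0284 in their deviations across genes, so the numbers were not used as pairs. Promoter sequences were matched by symbol to a RefSeq table on GRCh38.p14 for 9953 genes (80.4%).

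The comparison, the 31 pathway and 5 marker lists (753 of 790 entries matched, 707 tested) and the other settings were chosen with earlier results of these data known. The rule named the 5 subunit genes; the 15 highest and 15 lowest differences among called genes with non-overlapping libraries and a mean of at least 100 in the higher group; up to 4 called members per list with the smallest p, and all members of the subunit, feedback and IKK lists; 6 genes in each direction on opposite sides of the control; and 4 in each direction that moved together. Some genes that the rule names are not reported here. CXCL9, CXCL10, CD40, ICAM1, BCL2A1, HES1, PCNA and the markers named were chosen outside it after their values were seen.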

Additional observations from a re-analysis of the deposited data

How the results depend on the processing

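The count of genes higher (4225) or lower (4093) in the RelA knockout stayed within 1.5 times under every alternative run, with 4323 and 4184 under the replicate block, 8217 called in both directions by edgeR and 8118 by DESeq2. No gene called both in the reported fit and in an alternative changed sign between them, and the share of calls that were higher in the RelA knockout ranged from 48.5% to 55.5%. Genes called and at least 2-fold apart numbered 1502, but 761 with a mean of at least 100 and 2277 with no filter, which test fewer and more low genes. Leaving out 1 library gave 413 to 848 genes for the RelA knockout against the control (687 in full).

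The replicate block gave 8507 called genes, 8305 of them also called without it, and the replicate numbers did not pair these samples. The block moved members called higher in the EBV and Notch list from 3 to 5 and mitochondrially encoded transcripts to 1 higher and 5 lower, and among named genes it ended the call of HIST1H1C in the RelA knockout against the control (0.48, adjusted p = 0.054 by limma) and no other. With only the 2 groups compared, the EBV and Notch list had 5 higher, mitochondrially encoded transcripts 2 higher and 6 lower, and the ATF4 list 4 lower instead of 2; DESeq2 also gave 4 and quantile normalisation 7 for the last. Members called higher in the cholesterol list fell from 8 to 4 under quantile normalisation and to 5 without RelB replicate 2 or 3, those in the chemokine list from 4 to 2 with a mean of at least 100, and 1 translation gene was higher with the length trend removed or without RelA replicate 3.

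Of the called differences of named genes 1 changed sign: NEDD4L in the RelB-labelled libraries against the control, 0.27 (adjusted p = 4.0e-04 by limma), was -0.0013 with the length trend removed (adjusted p = 0.986, over a range of 1.15e-05 to 0.986 in the alternatives). The others that changed sign were not called. N4BP1 was -0.089 under quantile normalisation, -0.0028 under TMM scaling, -0.0024 by edgeR, -0.0058 by DESeq2, and -0.043 to 0.058 with 1 library left out. TGIF1 was 0.20 under quantile normalisation, 0.019 with the length trend removed and -0.17 to 0.13 with 1 library left out. NMNAT2 was 0.023, PEX5L 0.15 and TFEC 0.017 under quantile normalisation. With the length trend removed TRAF5 was 0.019 and OTULIN 0.026. With 1 library left out NMNAT2 was -0.34 to 0.034, TRAF5 -0.15 to 0.028, TRAF2 -0.062 to 0.028 and TRAF4 -0.088 to 0.0067. The cause was not tested. In all, 7295 of 7477 values of the 198 named genes kept their direction and their side of the threshold. A direct repeat of the deposited normalisation was not used as a check. Genes near 10 normalised read counts rest on few reads, which limits the precision of their differences.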
